A study of Mus musculus with 72 samples.

Results

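A set of 119 genes stood apart in the pancreatic islets of DBA/2J mice, out of 14604 genes measured by RNA sequencing in 3 inbred strains. The members were chosen from the islets of mice on regular chow (RC). A gene was taken when its mean level in DBA/2J lay at least 1.5 log2 units above, or at least 1.5 below, its mean in both C57BL/6J and BALB/cJ, and its highest strain mean reached 1 log2 CPM. Genes of the H2-, Rpl, Rps, Col and Try families were left out, which removed 4 genes past the rule. A further 42 genes passed the margin but had no strain mean of 1 log2 CPM. The set held 68 genes that were higher and 51 that were lower in DBA/2J.

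The mice were males of 8 weeks, fed a high-fat diet (HFD) or RC, and were studied at days 5, 13 and 33 of feeding. From 1 mouse came 120 to 150 islets, kept overnight in culture before RNA was taken for a library, so p-values measure the spread between mice. DBA/2J had 11 HFD libraries (4 at day 5, 3 at day 13, 4 at day 33) and 11 RC libraries (4, 4 and 3). C57BL/6J had 12 HFD libraries, 4 at each day, and 11 RC libraries (4, 4 and 3). BALB/cJ had 12 HFD and 12 RC libraries, 4 at each day. Whole islets were sequenced, so fewer cells of a type and less RNA per cell cannot be told apart.

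Inbred strains carry fixed sequence differences, and a gene can differ in level between strains because of variants in its own regulatory sequence, its splicing or its copy number. Processed pseudogenes are a further source of difference. They are copies of messenger RNA written back into the genome, and a copy can be present in some strains and absent in others. Islets are small endocrine organs in which beta cells secrete insulin, alpha cells glucagon, delta cells somatostatin and rare epsilon cells ghrelin, and they also hold endothelial, stromal and immune cells.

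Levels are log2 CPM, the base 2 logarithm of read counts scaled to library size (CPM) with an offset, whose floor is -3.54 log2 CPM for a gene without reads. The offset makes differences of low genes too small, so folds are given in CPM. Libraries held 12292621 to 34591079 reads in the 14604 genes, with a median of 22756199. The summed level of 12 beta-cell genes was 166990 to 257770 CPM in DBA/2J HFD islets, 130730 to 258330 CPM in C57BL/6J and 172890 to 276600 CPM in BALB/cJ. The summed level of 17 acinar enzyme genes varied widely within every strain, over 561 to 10786 CPM in DBA/2J HFD libraries, 311 to 5442 CPM in C57BL/6J and 538 to 47968 CPM in BALB/cJ. Endothelial genes, 12 of them, summed to 805 to 1181 CPM in DBA/2J HFD libraries, 631 to 851 CPM in C57BL/6J and 827 to 1068 CPM in BALB/cJ. The members had a median of 0.89 log2 CPM, against 4.23 log2 CPM over all genes, neither corrected for transcript length.

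The RC libraries chose the members, so their values are a description. The mean of the 68 higher members was 2.99 to 3.22 log2 CPM in single DBA/2J RC libraries, against -0.61 to -0.34 in C57BL/6J and -0.48 to -0.29 in BALB/cJ. The mean of the 51 lower members was -0.52 to 0.03 log2 CPM in DBA/2J RC libraries, against 2.74 to 2.87 in C57BL/6J and 2.45 to 2.69 in BALB/cJ. At the edge of the rule, Miat and Car11 were just inside among higher genes, at 1.51 and 1.53 log2 units, while Serpinb8 and 2310043P16Rik were just outside, both at 1.48. Among lower genes Tcf7l1 and A030001D20Rik were inside, both at 1.51, while Gm47283 at 1.5 (unrounded, below the margin) and Masp2 at 1.48 were outside.

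The HFD libraries came from other mice and played no part in the choice, so they gave the test. All 68 higher members were higher and all 51 lower members were lower in DBA/2J HFD islets than in those of either other strain, at an adjusted p under 0.05. With acinar, macrophage and endothelial scores as covariates 106 were called against C57BL/6J, and Ppp1r17 turned to 1.69 (adjusted p = 0.36, against -2.18 as reported). With title number as covariate 117 were called against BALB/cJ, and Shisa7 turned to -0.225 (adjusted p = 0.742, against 1.66 as reported). Adjusted p-values are two-sided, from limma with the Benjamini-Hochberg method over all 14604 genes. Against C57BL/6J, 28.5% of all genes were called higher in DBA/2J and 27.1% lower. Against BALB/cJ the shares were 16.5% and 15.6%. Higher than both other strains at once were 9.44% of all genes, and lower than both 8.31%.

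Log2 differences of the higher members ran from 1.20 to 7.73 against C57BL/6J (median 3.37) and from 1.42 to 10.43 against BALB/cJ (median 3.03). Those of the lower members ran from -7.07 to -1.04 against C57BL/6J (median -2.54) and from -5.47 to -1.29 against BALB/cJ (median -2.44). The median signed difference over all genes was 0.01 in both comparisons. In 58 of the 68 higher members every DBA/2J HFD library lay above every HFD library of the other strains, as it did for 1.35% of all genes. In 43 of the 51 lower members every DBA/2J HFD library lay below the others, against 0.972% of all genes. The 18 members whose libraries overlapped were Ceacam10, Dlk1, Fcna, Gm15816, Miat, Nlrp5-ps, Plagl1, Rprml, Shisa7 and Snhg11 among the higher genes, and AI506816, Gbp9, Gm14403, Gm27168, Gm38070, Ppp1r17, Rgs8 and Slfn2 among the lower.

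**Figure D1:**
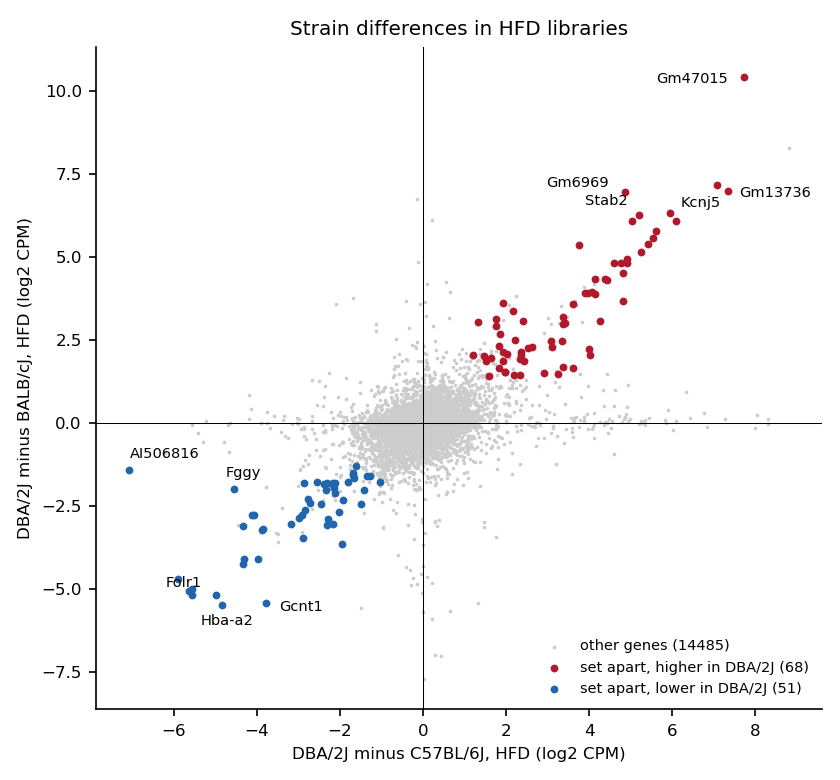
Each point is 1 gene, placed by its log2 difference in HFD islets between DBA/2J and C57BL/6J (horizontal) and between DBA/2J and BALB/cJ (vertical). The 68 higher members fill the upper right and the 51 lower members the lower left, apart from the mass of other genes near 0.

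The differences stood at each day of HFD. Against C57BL/6J, 119 members were called in their direction at day 5, where 45.3% of all genes were called in either direction. At day 13 the number was 117 (all genes 32.5%), without Gm14403 and Miat. At day 33 it was 116 (all genes 22.8%), without Ppp1r17, Nlrp5-ps and Dlk1. Against BALB/cJ, 118 members were called at day 5 (all genes 30.7%), all but AI506816. At day 13 it was 114 (all genes 11.6%), without Zfp970, Gm14403, Miat, Shisa7 and Rprml. At day 33 it was 117 (all genes 16.3%), without Shisa7 and Gm15816.

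Ion channels and receptors that set the electrical state of a cell were among the members that were higher in DBA/2J. Kcnj5 (chr9:32314707-32344350, GRCm38) encodes an inwardly rectifying potassium channel subunit that G proteins open. Its HFD libraries had 3.98, 4.54 and 4.74 log2 CPM as lowest, median and highest in DBA/2J, against -2.49, -1.53 and -0.71 in C57BL/6J and -2.98, -2.03 and -0.95 in BALB/cJ. Every DBA/2J library was far above every library of the other strains, in which the gene was barely detected. The log2 difference was 5.95 ± 0.18 against C57BL/6J (SE, limma adjusted p = 8.2e-24) and 6.34 ± 0.18 against BALB/cJ (adjusted p = 3.7e-24), or 79.5-fold and 111-fold in CPM. The RC libraries that chose the gene had a median of 4.54 log2 CPM in DBA/2J, against -1.28 in C57BL/6J and -1.46 in BALB/cJ.

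Chrna4, a subunit of the nicotinic acetylcholine receptor, had 3.25, 3.63 and 4.18 log2 CPM as lowest, median and highest in DBA/2J HFD libraries, against -1.71, -0.54 and 0.09 in C57BL/6J and -0.33, 0.70 and 1.29 in BALB/cJ. The groups did not overlap, and the log2 differences were 4.25 ± 0.16 and 3.09 ± 0.16 (SE, limma adjusted p = 3e-21 and 3.2e-17), for 21.1-fold and 8.66-fold in CPM. Cacna1e (chr1:154390731-154884501), the pore subunit of R-type voltage-gated calcium channels, had 2.44, 3.32 and 3.93 log2 CPM in DBA/2J HFD libraries, against -0.49, 0.66 and 1.19 in C57BL/6J and 0.24, 1.04 and 1.39 in BALB/cJ. Its libraries did not overlap either. The log2 differences were 2.63 ± 0.15 against C57BL/6J and 2.28 ± 0.15 against BALB/cJ (limma adjusted p = 7.6e-16 and 5.6e-14), for 6.58-fold and 5.17-fold in CPM. Kcnj5 and Cacna1e were the only members among 106 genes of potassium, calcium, sodium, chloride and TRP channels, beside 119 of all 14604 genes. Of those 106 genes, 25 were called higher and 42 lower than in C57BL/6J, and 23 higher and 31 lower than in BALB/cJ.

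Genes of regulated secretion followed. Rab3c, a small GTPase of secretory vesicles, had 7.03, 7.69 and 8.17 log2 CPM in DBA/2J HFD libraries, against 3.37, 4.29 and 4.79 in C57BL/6J and 4.75, 5.10 and 5.51 in BALB/cJ. The lowest DBA/2J library lay above the highest of the other strains. The log2 differences were 3.34 ± 0.10 and 2.48 ± 0.10 (SE, limma adjusted p = 8.9e-24 and 7.7e-20), for 10.1-fold and 5.65-fold in CPM. Rph3a encodes rabphilin, a protein that binds Rab3 on vesicles. It had 0.44, 1.19 and 1.64 log2 CPM in DBA/2J HFD libraries, against -3.03, -2.37 and -1.14 in C57BL/6J and -3.54, -1.84 and -0.76 in BALB/cJ, with log2 differences of 3.38 ± 0.29 and 3.00 ± 0.29 and no overlap.

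The endocytic receptor gene Stab2 (chr10:86841198-87008025) encodes stabilin-2, a scavenger receptor for hyaluronan known from sinusoidal endothelium. It had 5.74, 6.96 and 7.61 log2 CPM in DBA/2J HFD libraries, against 0.73, 1.74 and 2.65 in C57BL/6J and -0.14, 0.69 and 1.27 in BALB/cJ. No library of the other strains came near the DBA/2J range. The log2 differences were 5.19 ± 0.16 and 6.26 ± 0.16 (SE, limma adjusted p = 1.4e-23 and 2.7e-25), for 38.9-fold and 84.6-fold in CPM. Of 12 endothelial marker genes, none a member, 11 were called higher and none lower in DBA/2J than in C57BL/6J, and 2 higher and 4 lower than in BALB/cJ. Their summed levels, given above, overlapped between strains. With endothelial, acinar and macrophage scores as covariates the differences of Stab2 were 5.51 and 6.23. Arhgef15, a guanine nucleotide exchange factor known from blood vessels, had 5.40, 5.46 and 5.6 log2 CPM in DBA/2J HFD libraries, against 2.84, 3.12 and 3.39 in C57BL/6J and 3.19, 3.41 and 3.76 in BALB/cJ. It was among the least variable members, and with the same covariates its log2 differences were 2.07 against C57BL/6J and 2.06 against BALB/cJ.

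Among metabolic and stress genes, Dgat2, which joins a fatty acid to diacylglycerol in the last step of triglyceride synthesis, had 3.82, 4.10 and 4.27 log2 CPM in DBA/2J HFD libraries, against 0.93, 1.54 and 2.63 in C57BL/6J and 0.06, 0.90 and 2.38 in BALB/cJ. Its log2 differences were 2.42 ± 0.19 and 3.08 ± 0.19 (SE, limma adjusted p = 1.2e-12 and 4.1e-15). Ddit4l, an inhibitor of mTOR signalling, had 3.84, 4.56 and 4.99 log2 CPM in DBA/2J HFD libraries, against 0.40, 0.79 and 1.37 in C57BL/6J and 0.24, 0.82 and 1.47 in BALB/cJ, for 12.7-fold and 12.3-fold in CPM. The other strains were alike in level and DBA/2J was apart from both. Ckb, the brain-type creatine kinase, had a median of 7.79 log2 CPM in DBA/2J HFD libraries, against 5.59 in C57BL/6J and 4.36 in BALB/cJ. Xaf1, an interferon-induced regulator of apoptosis, had log2 differences of 1.65 ± 0.11 and 1.97 ± 0.11. It was the only member among 26 interferon-induced genes, beside 119 of all 14604 genes. Of that list 7 genes were called higher and 11 lower than in C57BL/6J, and 4 higher and 5 lower than in BALB/cJ.

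The remaining higher coding genes with wide margins were of mixed function. Tescl, a relative of the calcium-binding protein tescalcin, had a median of 2.20 log2 CPM in DBA/2J HFD libraries, against -1.72 in C57BL/6J and the floor of -3.54 in BALB/cJ. Gp9, a subunit of the platelet receptor for von Willebrand factor, had 1.17, against -1.92 and -1.48. Speg, a muscle-type protein kinase, had 4.93, against 1.91 and 2.56, and Wdr49, a WD-repeat gene, had 4.32, against 2.56 and 1.39. Ccdc68, a coiled-coil gene, had 3.25, against 0.61 in C57BL/6J and 0.96 in BALB/cJ. None of these 5 genes had overlapping HFD libraries. Snhg11, a host gene of small nucleolar RNA, had 5.40, 6.35 and 6.91 log2 CPM in DBA/2J HFD libraries, against 3.6, 4.38 and 5.57 in C57BL/6J and 2.24, 3.03 and 4.11 in BALB/cJ, and its DBA/2J and C57BL/6J libraries overlapped. The widest margin of all members belonged to Gm47015 (chr10:79412962-79417905), a long intergenic non-coding RNA, at 6.76, 7.37 and 7.79 log2 CPM in DBA/2J HFD libraries, against -1.22, -0.36 and 0.18 in C57BL/6J and -3.54, -3.31 and -2.20 in BALB/cJ. Its log2 differences were 7.73 ± 0.16 and 10.43 ± 0.16.

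Ghrl, a lower member, encodes ghrelin, the hormone of epsilon cells. It had -3.54, -1.23 and 0.22 log2 CPM in DBA/2J HFD libraries, against 1.48, 2.46 and 3.49 in C57BL/6J and 1.16, 1.74 and 2.44 in BALB/cJ. No DBA/2J library reached the lowest library of the other strains. The log2 differences were -3.87 ± 0.29 and -3.22 ± 0.29 (SE, limma adjusted p = 7.5e-13 and 9.9e-11), for 15.2-fold and 9.55-fold lower CPM. With acinar, macrophage and endothelial scores as covariates the difference from C57BL/6J was -1.91 and was not called (adjusted p = 0.215), while that from BALB/cJ was -2.77 and was called. Of the 4 PP and epsilon cell genes 2 were called lower and none higher than in each other strain, and their summed level was 2978 to 5979 CPM in DBA/2J, 2650 to 6067 CPM in C57BL/6J and 2377 to 7371 CPM in BALB/cJ.

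No member came from the lists of 12 beta-cell, 9 alpha-cell and 5 delta-cell genes, or from 31 genes of glucose sensing and insulin secretion. Over all genes 119 of 14604 were members, so lists this short need hold none. Of those 31 genes, 6 were called higher and 13 lower than in C57BL/6J, and 8 higher and 10 lower than in BALB/cJ. In the integrated stress response, 12 of 19 genes were called higher and none lower than in each other strain, at medians of 0.34 and 0.52 log2 units, and none was a member. Of 21 NRF2 and glutathione genes, 12 were called higher and 3 lower than in C57BL/6J, and 7 higher and 2 lower than in BALB/cJ, again with no member. No solute carrier gene, of 237, was a member, beside 0.549% of all protein-coding genes.

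Folr1 (chr7:101858331-101870788), the folate receptor alpha gene, had the widest RC margin of the coding genes that were lower in DBA/2J. It had -1.21, -0.72 and 0.24 log2 CPM in DBA/2J HFD libraries, against 3.73, 4.46 and 4.94 in C57BL/6J and 4.15, 4.60 and 5.13 in BALB/cJ. The other strains were close to each other, and DBA/2J lay below both without overlap. The log2 differences were -4.99 ± 0.13 and -5.20 ± 0.13 (SE, limma adjusted p = 6.1e-25 and 4.3e-25), for 35.8-fold and 41.2-fold lower CPM. Fxyd3, a small regulator of the sodium pump, had -3.54, -2.91 and -0.42 log2 CPM in DBA/2J HFD libraries, against 2.96, 3.23 and 3.66 in C57BL/6J and 1.79, 1.99 and 2.62 in BALB/cJ, for 80.2-fold and 34.8-fold lower CPM. Ptprt, a receptor-type tyrosine phosphatase, had 3.72, 4.53 and 4.74 log2 CPM in DBA/2J HFD libraries, against 7.04, 7.28 and 7.66 in C57BL/6J and 5.95, 6.25 and 6.40 in BALB/cJ. Its log2 differences were -2.86 ± 0.08 and -1.80 ± 0.08, among the smallest standard errors of the set.

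Several lower members encode enzymes. Gcnt1, which starts core 2 branches on O-linked glycans, had -3.05, -1.94 and -0.86 log2 CPM in DBA/2J HFD libraries, against 1.25, 1.91 and 2.43 in C57BL/6J and 3.10, 3.5 and 3.78 in BALB/cJ, so the 3 strains took separate levels. Its log2 differences were -3.77 ± 0.17 and -5.42 ± 0.17 (SE, limma adjusted p = 4.1e-19 and 4.1e-23). Hdc, histidine decarboxylase, which makes histamine, had a median of -2.14 log2 CPM in DBA/2J HFD libraries, against 1.77 in C57BL/6J and 0.52 in BALB/cJ. Uox, urate oxidase, had -0.65, against 2.79 and 2.35. Fggy, a carbohydrate kinase gene, also had a level of its own in each strain, at -0.53 in DBA/2J, 3.89 in C57BL/6J and 1.33 in BALB/cJ.

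Mndal, an interferon-inducible DNA-binding protein gene, had a median of -1.72 log2 CPM in DBA/2J HFD libraries, against 2.08 in C57BL/6J and 2.15 in BALB/cJ. Gbp9, a guanylate-binding protein gene, had -0.25, 0.38 and 1.94 in DBA/2J, against 1.72, 2.44 and 3.5 in C57BL/6J and 2.84, 3.2 and 3.39 in BALB/cJ, with overlap between DBA/2J and C57BL/6J. They were the only members among 19 Ifi and Ifit genes and 14 guanylate-binding and immunity-related GTPase genes, beside 119 of all 14604 genes. Tceanc2, a gene with a transcription elongation factor domain, had a median of 0.94, against 4.19 and 4.05, and Caps2, a calcium-binding protein gene, had -1.46, against 2.82 and 1.39. Btg3, an antiproliferative gene, had -0.62, against 2.33 and 2.30, and the non-coding nuclear RNA Neat1 had 4.49, against 7.13 and 6.43.

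**Figure D2:**
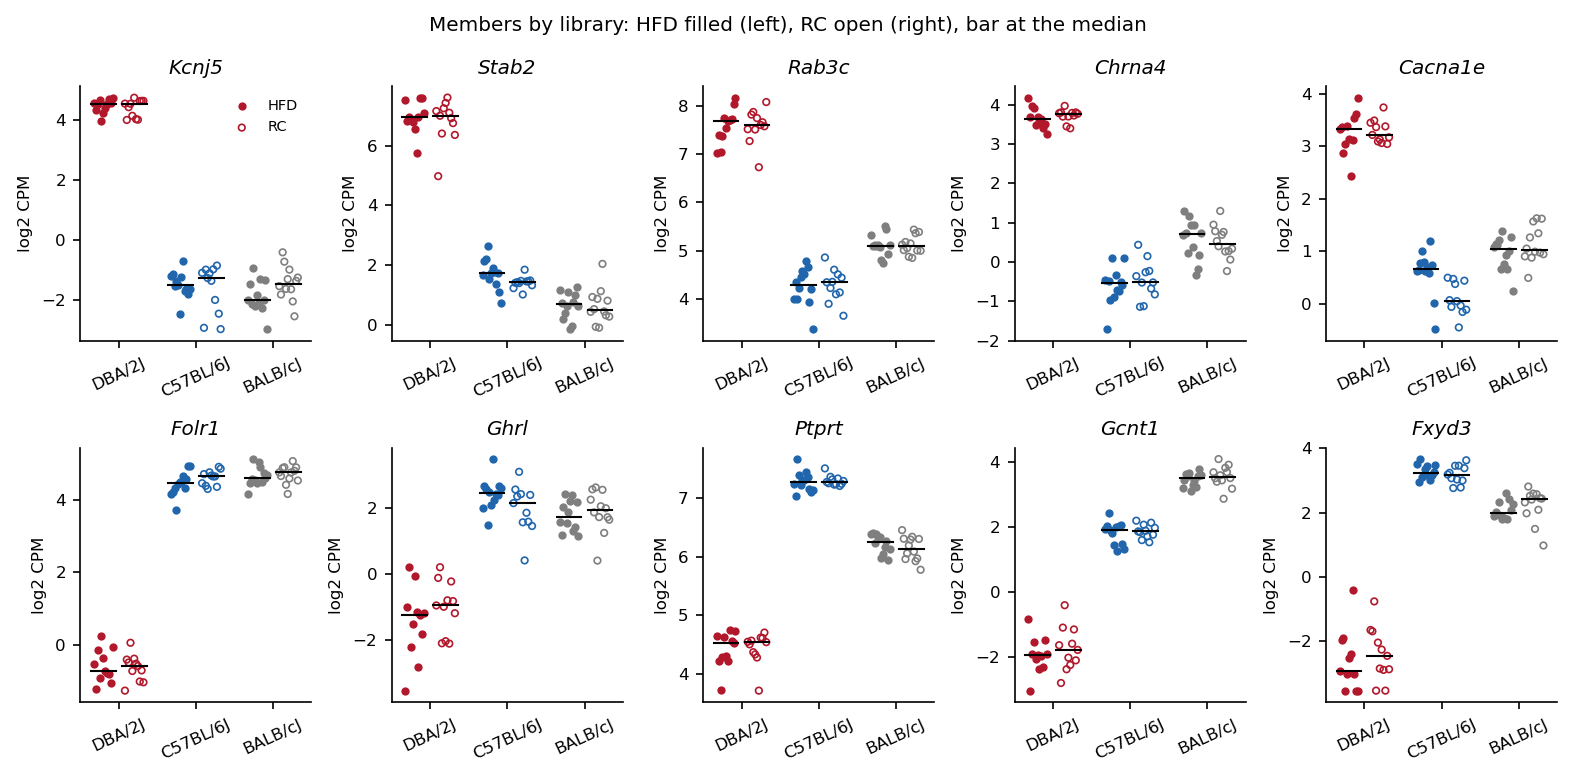
Log2 CPM of 10 members in every library, with filled points for HFD at the left of each strain, open points for RC at the right and a bar at the median. In HFD libraries the 5 members Kcnj5, Stab2, Rab3c, Chrna4 and Cacna1e lie above both other strains in DBA/2J, while Folr1, Ghrl, Ptprt, Gcnt1 and Fxyd3 lie below them.

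Hba-a2 is an alpha-globin gene of red blood cells. It was at or near the floor in DBA/2J HFD libraries, at -3.54, -3.54 and -2.73 log2 CPM, against 0.07, 1.23 and 3.01 in C57BL/6J and 0.97, 2.07 and 3.15 in BALB/cJ. Its near copy Hba-a1, identical over 99.8% of the aligned transcript, went the other way. Hba-a1 averaged 14.3 CPM in DBA/2J HFD libraries, 5.24 CPM in C57BL/6J and 6.79 CPM in BALB/cJ, and was called higher in DBA/2J by 1.65 and 1.05 log2 units. Reads of such copies may be assigned to either gene, so the values of Hba-a2 are uncertain. Of 94 members with an annotated transcript that are not processed pseudogenes, 4 had a match of at least 95% identity over at least 80% of their length. Beside Hba-a2 these were Zfp991, Gm11273 and Gm19196, whose values carry the same doubt. Members with shorter or less close matches can share reads too. Btg3 was 100% identical to the pseudogene Gm7334 over 438 bases, 14.5% of its transcript, and is taken up again below.

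The strains C57BL/6J and BALB/cJ were not alike in the members. Of the 119, 60 differed between BALB/cJ and C57BL/6J HFD islets, 29 higher and 31 lower in BALB/cJ, near the 51.6% of all genes that did. AI506816, a processed non-coding transcript, differed most. It had a median of -2.82 log2 CPM in DBA/2J, -1.52 in BALB/cJ and 4.08 in C57BL/6J, and BALB/cJ minus C57BL/6J was -5.65 ± 0.20 (SE, limma adjusted p = 1e-21). The next differences of BALB/cJ minus C57BL/6J were -2.70 for Gm47015 and -2.57 for Fggy. Positive ones were 1.97 for Prmt8, an arginine methyltransferase, 1.95 ± 0.35 for Shisa7, a modulator of neurotransmitter receptors, and 1.65 for Gcnt1. Shisa7 varied widely in BALB/cJ HFD libraries, at 0.14, 1.86 and 3.33 log2 CPM as lowest, median and highest, against -1.40, 0.01 and 0.69 in C57BL/6J.

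Among 214 measured processed pseudogenes, 23 were members, or 10.7%, against 0.549% of 13294 protein-coding genes (73 members) and 2.1% of 1096 genes of other biotypes (23 members). All 23 were higher in DBA/2J, and they were 33.8% of the higher members. Some were almost unread elsewhere, such as Gm7172, at 4.83 CPM in DBA/2J HFD libraries, 0.0136 in C57BL/6J and 0 in BALB/cJ. Such a gene may be among the measured genes only through DBA/2J, which can raise the share of members and favour the higher direction. The shares are thus a description. All 23 are annotated in GRCm38, the reference genome of C57BL/6J, which was used for the reads of every strain. The C57BL/6J reference thus holds all 23 copies, although their levels in that strain were lower than in DBA/2J. No DBA/2J or BALB/cJ sequence was used, so which copies DBA/2J and BALB/cJ carry was not tested. Of the 23, 22 matched a coding transcript over at least 80% of their length, at a median identity of 98.5%, while 176 of the other 191 processed pseudogenes did so at 98.98%. The rule chose the pseudogenes by their own level. Where copies share reads that level is tied to the parent's, so the parent levels below are no independent test of the choice.

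Copies this close can take reads from the parent gene and give reads to it. A segment of 120 bases is shown for 3 pairs, because the letters decide whether a read can be told apart. All are reference sequence of GRCm38, 5′ to 3′ on the strand of each gene, with bases that differ within a pair in capitals. The pseudogene Gm13736 (chr2:87526145-87526264, plus strand) and bases 2 to 121 of the coding part of Srp9, on chromosome 1, are identical, as are Gm7334 (chr17:50698688-50698807, plus strand) and coding bases 1 to 120 of Btg3, on chromosome 16. Gm14038 (chr2:134763127-134763246, minus strand) and coding bases 385 to 504 of Zfand1, on chromosome 3, differ at 2 bases.
Gm13736: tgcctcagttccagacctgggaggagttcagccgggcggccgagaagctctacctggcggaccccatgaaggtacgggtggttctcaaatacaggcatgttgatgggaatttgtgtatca
Srp9: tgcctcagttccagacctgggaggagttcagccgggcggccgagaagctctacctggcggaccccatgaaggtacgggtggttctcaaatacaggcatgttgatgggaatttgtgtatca
Gm7334: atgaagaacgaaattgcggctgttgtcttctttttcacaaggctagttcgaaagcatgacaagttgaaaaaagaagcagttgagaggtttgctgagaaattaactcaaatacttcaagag
Btg3: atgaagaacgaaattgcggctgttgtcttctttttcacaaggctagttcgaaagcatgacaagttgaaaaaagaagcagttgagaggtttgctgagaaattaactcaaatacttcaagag
Gm14038: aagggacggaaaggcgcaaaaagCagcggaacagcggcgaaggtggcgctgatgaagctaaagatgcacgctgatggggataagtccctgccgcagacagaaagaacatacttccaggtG
Zfand1: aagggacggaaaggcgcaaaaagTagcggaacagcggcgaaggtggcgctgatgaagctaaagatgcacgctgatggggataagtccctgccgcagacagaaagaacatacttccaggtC

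Srp9 encodes a subunit of the signal recognition particle, which leads new secretory proteins to the endoplasmic reticulum. Gm13736 averaged 25.6 ± 3.55 CPM in DBA/2J HFD libraries (SD, n = 11), against 0.0831 ± 0.0704 CPM in C57BL/6J and 0.121 ± 0.0666 CPM in BALB/cJ (SD, n = 12 each). Srp9 averaged 27.3 ± 2.52 CPM in DBA/2J, against 50.4 ± 4.39 CPM in C57BL/6J and 63.3 ± 9.21 CPM in BALB/cJ, and was called lower by 0.88 and 1.19 log2 units. The sum of both was 52.9 ± 5.39 CPM in DBA/2J, 50.5 ± 4.38 CPM in C57BL/6J and 63.4 ± 9.21 CPM in BALB/cJ, so the ranges of the sums overlapped where those of Srp9 did not. The part of read assignment in the lower Srp9 level was not tested. These pairs, their parent genes and the further predicted genes named here were chosen after their values were seen.

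The pattern of a lower parent recurred without being general. Of 21 member pseudogenes aligned to a parent gene in the table at 90% identity or more, 11 parents were called lower in DBA/2J HFD islets than in both other strains, beside 8.31% of all genes. None was called higher than in both, beside 9.44% of all genes, and 10 were neither. The 11 were Srp9, Tuba1a, Zfand1, Cox7a2l, Ppdpf, Glul, Scoc, Phb, Bex4, Acaca and Btg3, of which Btg3 was itself a member by the rule. Cox7a2l, a factor of respiratory supercomplex assembly, averaged 67.0 ± 4.70 CPM in DBA/2J HFD libraries, against 140 ± 15.5 in C57BL/6J and 126 ± 11.7 in BALB/cJ, while its copy Gm6969 averaged 41.6 ± 3.95, against 1.39 ± 0.384 and 0.267 ± 0.130. Their sum was 109 ± 5.82 CPM in DBA/2J, 141 ± 15.8 in C57BL/6J and 126 ± 11.8 in BALB/cJ. The highest DBA/2J sum (117) lay below the lowest of C57BL/6J (119) and above the lowest of BALB/cJ (110).

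Sums did not always meet. Glul, glutamine synthetase, was called lower by 0.74 and 0.72 log2 units, while its copy Glns-ps1 averaged 8.72 ± 1.75 CPM in DBA/2J HFD libraries, against 0.233 ± 0.152 in C57BL/6J and 0.241 ± 0.124 in BALB/cJ. The sum of both was 295 ± 33.3 CPM in DBA/2J, against 473 ± 38.5 and 466 ± 35.7, without overlap. Acaca, acetyl-CoA carboxylase, was likewise at 22.5 ± 3.98 CPM in DBA/2J, against 48.0 ± 5.42 and 48.9 ± 5.15, with its copy Gm5182 at 2.66 ± 0.427 CPM in DBA/2J. For Btg3 and Gm7334 the sum was 3.14 ± 0.391 CPM in DBA/2J, against 5.63 ± 1.32 in C57BL/6J and 5.02 ± 0.901 in BALB/cJ, and the highest DBA/2J sum lay above the lowest of C57BL/6J (3.73) and of BALB/cJ (3.71). Rap1a, a small GTPase, averaged 43.0 ± 4.29 CPM in DBA/2J, 47.1 ± 5.53 in C57BL/6J and 44.7 ± 3.28 in BALB/cJ, and was not called, although its copy Gm9392 had 4.45 ± 0.666 CPM in DBA/2J, against 0.143 ± 0.103 and 0.156 ± 0.108.

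**Figure D3:**
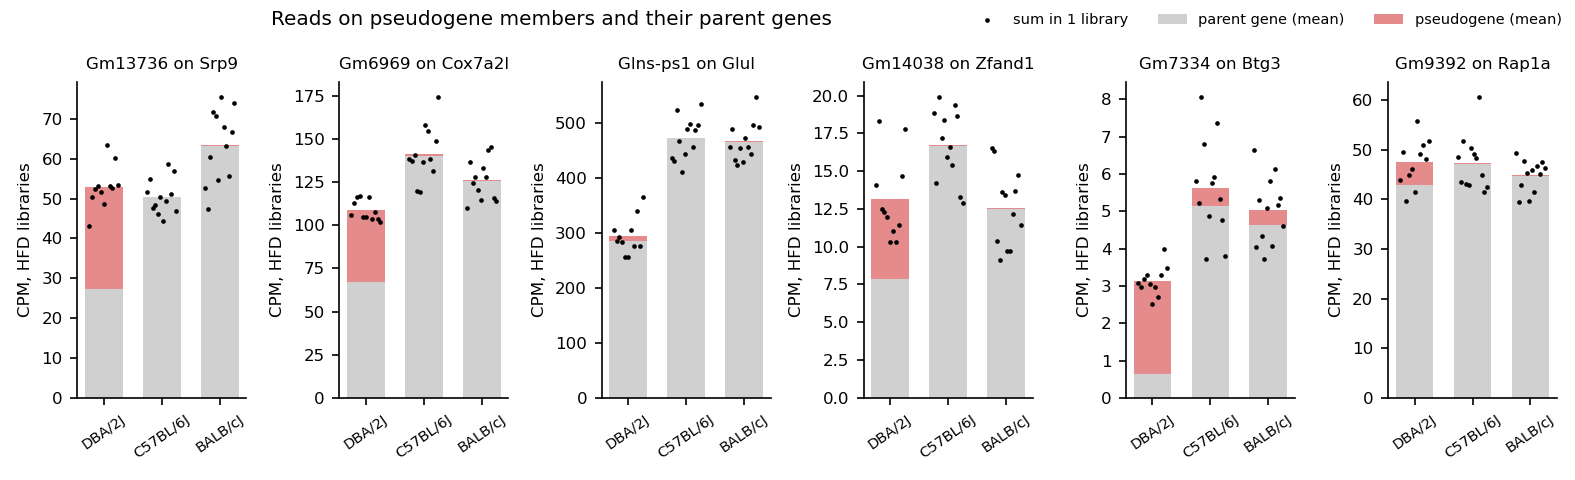
Mean CPM of a pseudogene and its parent gene stacked for 6 pairs in HFD libraries of each strain, with a point for the sum in every library. The pseudogene part is visible mainly in DBA/2J. The sums of Gm13736 with Srp9 overlap between the strains, while those of Glns-ps1 with Glul in DBA/2J all lie below those of both other strains.

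Members lay closer together in the genome than genes in general. Of 117 members with a position, 30 (25.6%) lay within 1 Mb of another member, while 13.5% of 14589 genes lay within 1 Mb of a member. Chromosome 7 held 19 members, 16.2% of them, beside 7.72% of all genes. The 30 formed 12 groups, 4 of them with 3 members or more. On chromosome 4, from 147132038 to 147809788, 3 of the 4 genes in the table were members, and all 3 were zinc finger genes that were lower in DBA/2J. Zfp984 had a median at the floor of -3.54 log2 CPM in DBA/2J HFD libraries, against 2.43 in C57BL/6J and 1.97 in BALB/cJ, with log2 differences of -5.57 ± 0.17 and -5.00 ± 0.17. Zfp991 had -0.13, against 1.99 and 1.66, and Zfp982 had -1.01, against 0.93 and 0.64.

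On chromosome 12, from 20804381 to 21554521, 3 of 11 genes were members and lower in DBA/2J. The transcript 1700030C10Rik had no read in any DBA/2J library of either diet, against medians of 2.23 log2 CPM in C57BL/6J and 1.5 in BALB/cJ HFD libraries, so it was at least 333-fold and 225-fold lower, with 3 reads over the DBA/2J group as the floor. Its neighbour Zfp125, annotated as a transcribed pseudogene, had -2.79, against 2.80 and 2.42, and Gm19196 had -2.16, against 0.55 and 1.06. The largest group, on chromosome 7 from 45526330 to 46821417, mixed directions among its 5 members of 30 genes, with Plekha4 and A030001D20Rik lower and Car11, Gm18706 and Gm9392 higher. Zinc finger genes gave 5 members of 418, or 1.20%, all lower, beside 119 of all 14604 genes. Of the 418, 40 were called higher and 160 lower than in C57BL/6J, and 36 higher and 48 lower than in BALB/cJ.

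A pair of neighbouring zinc finger genes on chromosome 2 departed from the steady strain differences. Zfp970 (chr2:177464733-177478129) and Gm14403 (chr2:177498215-177509763) belong to a cluster of related genes there. Their promoters, taken as the 250 bases before the start, are 84.5% identical and are shown because the genes moved together. Whether promoters of neighbours that stayed level are as alike was not tested. The sequences are from RefSeq for GRCm38.p6, on the plus strand, at chr2:177464492-177464741 and chr2:177497976-177498225. Capitals mark the CCAAT box, CCAAT or ATTGG on the other strand, of which each promoter holds 2.
Zfp970: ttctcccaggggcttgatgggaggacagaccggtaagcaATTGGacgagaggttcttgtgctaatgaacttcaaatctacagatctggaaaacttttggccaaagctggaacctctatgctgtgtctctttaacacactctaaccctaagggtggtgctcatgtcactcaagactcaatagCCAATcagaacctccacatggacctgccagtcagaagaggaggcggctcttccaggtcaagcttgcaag
Gm14403: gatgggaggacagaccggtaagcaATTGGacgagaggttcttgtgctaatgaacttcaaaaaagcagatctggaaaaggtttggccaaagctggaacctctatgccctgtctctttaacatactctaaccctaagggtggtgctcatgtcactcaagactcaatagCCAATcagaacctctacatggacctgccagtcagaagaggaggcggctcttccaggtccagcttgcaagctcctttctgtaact

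Zfp970 was near the floor in DBA/2J at days 5 and 33 but not at day 13. On HFD it had -3.54, -2.69, -3.03 and -3.54 log2 CPM in the 4 DBA/2J libraries of day 5, 2.09, 2.22 and 1.64 in the 3 of day 13, and -3.54, -3.01, -2.71 and -3.54 in the 4 of day 33. All 3 libraries of day 13 were far above the others, but below the lowest HFD value of BALB/cJ (2.29) and of C57BL/6J (2.55). On RC the day 13 libraries split, with -0.60, 0.95 and 1.86 log2 CPM in 3 and the floor of -3.54 in the other, replicate 2. RC libraries of days 5 and 33 had -3.54 to -2.10.

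Gm14403 followed the same libraries. On HFD it had -3.54, -3.54, -3.54 and -2.73 log2 CPM at day 5, 2.69, 3.4 and 1.82 at day 13, and -3.54, -3.54, -2.19 and -3.54 at day 33. Its reads numbered 1 over the HFD libraries of day 5, 475 over those of day 13 and 2 over those of day 33. On RC it had 0.36, 1.68 and 2.5 in 3 libraries of day 13 and -2.85 in replicate 2, the same library in which Zfp970 was at the floor. In the HFD libraries of day 13, 2 of the 3 Gm14403 values lay above the lowest HFD library of C57BL/6J (2.58) and of BALB/cJ (2.23). HFD at day 13 minus day 5 was 5.18 ± 0.25 for Zfp970 (SE, limma adjusted p = 1.3e-15) and 5.97 ± 0.31 for Gm14403 (adjusted p = 2.9e-15). These were the only members called, beside 0.0479% of all genes, or 7 of them.

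A neighbour outside the set, Gm14418 (chr2:177387124-177398320), was named after its values were seen. It had -2.69 to -2.12 log2 CPM at day 5, 0.05 to 0.53 at day 13 and -2.82 to -1.25 at day 33 in DBA/2J on HFD, and rose by 2.73 ± 0.32 from day 5 (limma adjusted p = 7.4e-06). The other 12 genes of the table within 1 Mb were not called, among them Gm14325 at 0.24, Gm14322 at 0.77 and Zfp931 at 0.53 log2 units. The remaining 4 genes called in the genome were Miip, Herpud2, Zfp366 and Hdac6, with changes of -0.76, 0.30, 0.97 and -0.46. The numbers in the DBA/2J sample titles run in a separate range at each day, so day and title number go together. With title number as a covariate the rises of Zfp970 and Gm14403 were 4.14 and 5.95 and both were called. The cause of the difference between days was not tested.

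**Figure D4:**
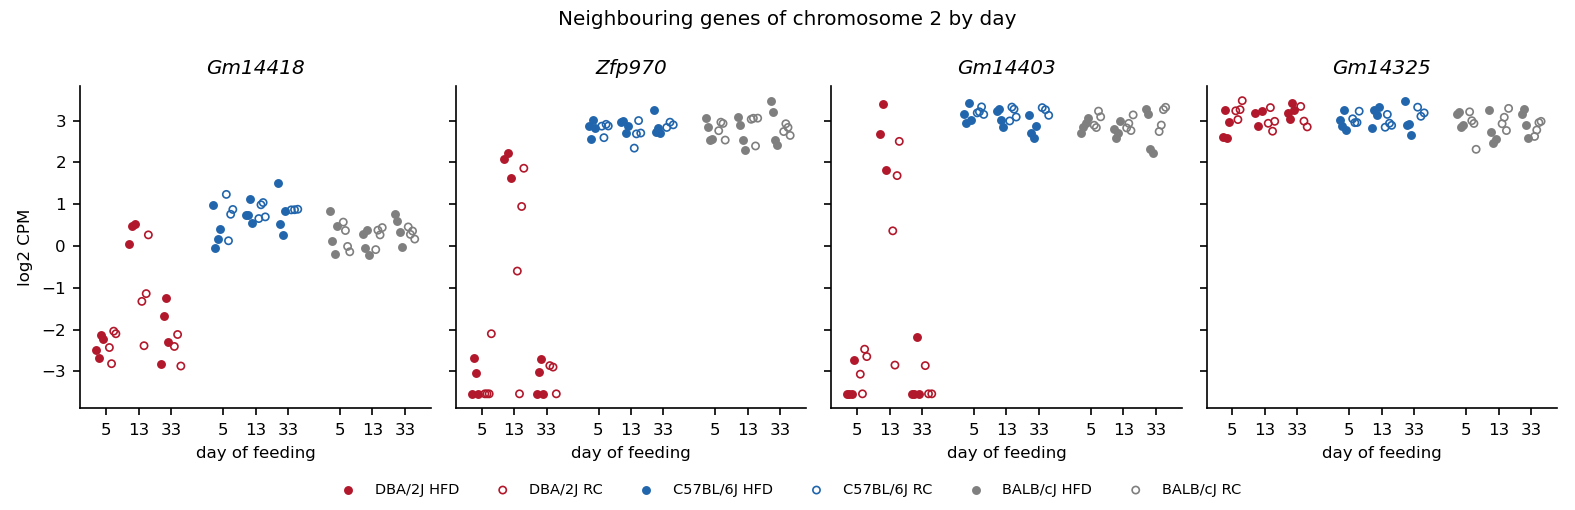
Log2 CPM of Gm14418, Zfp970, Gm14403 and, for comparison, Gm14325 by day in every library of each strain. In DBA/2J the first 3 genes are low at days 5 and 33 and high in the HFD libraries of day 13, while Gm14325 is at a similar level at all days.

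Promoters were at hand in RefSeq for 69 of the 119 members, 33 higher and 36 lower. The CCAAT box stood on either strand in 63.9% of the lower members and 27.3% of the higher ones, and in 37.5% of 27025 genes. Those 27025 are all genes with a promoter there, not limited to the 14604 genes measured in islets, so the shares are not of like sets. Related members, such as Zfp970 and Gm14403 with 84.5% identity, were counted as separate genes. The GC box GGGCGG stood in 52.8% of lower members, 45.5% of higher members and 35.4% of genes, and the TATA box TATAAA in 8.33%, 3.03% and 14.3%. The cyclic AMP response element TGACGTCA was found in 5.56%, 0% and 1.77%, and the E-box CACGTG in 2.78%, 6.06% and 6.86%. These are matches of letters in the reference strain, not sites shown to act, and a sequence from DBA/2J was not used here.

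Between day 5 and day 33 on HFD, 7 members differed in DBA/2J, or 5.88%, beside 18.7% of all genes. Time on HFD and title number cannot be told apart here, and the same days on RC were not compared. The vesicle gene Rab3c had 7.03, 7.39, 7.05 and 7.37 log2 CPM at day 5, 7.75, 7.53 and 7.69 at day 13, and 7.71, 7.73, 8.03 and 8.17 at day 33. All libraries of day 33 lay above those of day 5, and the change was 0.70 ± 0.17 (SE, limma adjusted p = 0.0058). Sfi1, a centrosome gene, had 6.96 to 7.30 at day 5, 6.41 to 6.52 at day 13 and 6.25 to 6.68 at day 33, and fell by 0.71 ± 0.15 (adjusted p = 0.0025). Ccdc184, a coiled-coil gene, fell by 0.91 ± 0.20 (adjusted p = 0.0035). Zfp982 rose by 0.94 ± 0.26, Ptprt by 0.43 ± 0.13 and Mndal by 1.06 ± 0.34, while the transcript Tmem51os1 fell by 0.59 ± 0.20. Rab3c is a higher member, while Ptprt, Zfp982 and Mndal, which also rose, are lower members. Whether the gap to the other strains changed between these days was not tested. Tmem51os1 overlaps Tmem51 on the other strand, and the strand setting of the counting is not given in the sources used here. With title number as covariate 6 of the 7 calls were lost, all but that of Sfi1, and Rab3c then had 0.37 (adjusted p = 0.411) and Ptprt 0.19 (adjusted p = 0.629). With cell-type scores as covariates 5 were lost, all but Sfi1 and Mndal, and without single DBA/2J libraries of day 5 or 33 those of Tmem51os1 (6 libraries), Mndal (5), Ptprt (3) and Zfp982 (2).

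Few genes of any kind were called for diet in DBA/2J, so the counts are not a trait of the members. Averaged over days, HFD minus RC gave 0 calls among the 119 members with limma, as it did over all genes (0%), and 10 members had an unadjusted p under 0.05. With voom on reads recovered from the table the count was also 0, where 8 had an unadjusted p under 0.05. It was larger with array weights and with quantile normalization, as given at the end. The RC libraries here had also chosen the members. At day 5 no member was called (all genes 0.548%), 12 having an unadjusted p under 0.05, and at day 13 none (all genes 0%), with 9. At day 33 Zfp982 was called, beside 0.0205% of all genes. In C57BL/6J 10 members were called, 8 higher and 2 lower on HFD (8.40%, beside 14.6% of all genes), and in BALB/cJ 1, Dgat2, at 0.73 ± 0.17 (limma adjusted p = 0.043, beside 0.151% of all genes). The calcium channel gene Cacna1e was among the 10 in C57BL/6J, at 0.51 ± 0.14 (adjusted p = 0.011). At day 5 the title numbers of C57BL/6J HFD and RC libraries run in separate ranges, so diet and title number go together there. The part of title number in the C57BL/6J diet calls was not tested.

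The diet effect itself was compared between strains. It rests in part on the RC libraries that chose the members for their strain gap, which can bias the difference for a member, so its p-values are no independent test. By limma it differed between DBA/2J and C57BL/6J for 2 members, beside 1.11% of all genes, and between DBA/2J and BALB/cJ for none with limma (9 at an unadjusted p under 0.05), as for 0% of all genes. Zfp982 is a zinc finger gene of the group on chromosome 4. At day 33 it had -0.78, -0.99, -0.29 and -1.01 log2 CPM in DBA/2J on HFD, against -2.40, -2.45 and -1.79 on RC, without overlap, a difference of 1.45 ± 0.29 (limma adjusted p = 0.037). At days 5 and 13 the diets overlapped. In C57BL/6J the day 33 libraries had 1.35, 0.36, 0.54 and 0.69 on HFD, against 1.24, 1.31 and 1.21 on RC. Over all days HFD minus RC was 0.71 ± 0.17 in DBA/2J and -0.32 ± 0.16 in C57BL/6J, neither called, and their difference was 1.03 ± 0.23 (adjusted p = 0.030).

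Plekha4, a gene of a phosphoinositide-binding protein, was the other. In C57BL/6J it had 2.81 to 3.70 log2 CPM on HFD, against 2.34 to 3.12 on RC, and rose by 0.52 ± 0.12 (SE, limma adjusted p = 0.0029). In DBA/2J it had -0.12 to 1.82 on HFD, against 0.09 to 1.82 on RC, with a difference of -0.17 ± 0.12 that was not called. The diet effects differed by -0.69 ± 0.17 (adjusted p = 0.038). Neither call was firm, and both use the C57BL/6J libraries of day 5, where diet and title number go together. Leaving out 1 library ended that of Zfp982 in 5 cases (adjusted p = 0.0506 to 0.0633) and that of Plekha4 in 18 (adjusted p = 0.05 to 0.116), and both were lost with title number as a covariate (adjusted p = 0.262 and 0.306).

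**Figure D5:**
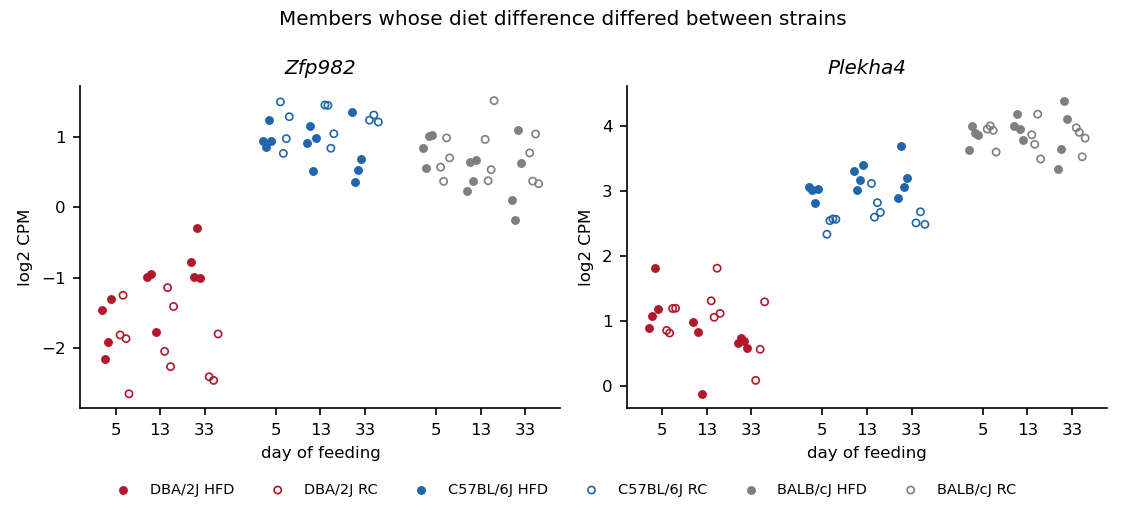
Log2 CPM of Zfp982 and Plekha4 by day, with HFD at the left of RC, in every library of the 3 strains. Zfp982 separates the diets in DBA/2J at day 33, and Plekha4 is higher on HFD than on RC in C57BL/6J.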

How the data were processed

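Messenger RNA from islets of 1 mouse per library was sequenced as single-end stranded libraries, per the labels' protocols. Per the submitters' processing notes STAR 2.5.3a, HTSeq 0.9.1 and edgeR were used with GRCm38. The deposited values are log2 CPM. In each of the 69 libraries they corresponded to whole reads, within 0.05 reads, for 100% of values. At day 33 on RC, 1 C57BL/6J and 1 DBA/2J sample have no column, nor has 1 DBA/2J sample on HFD at day 13, and they were not analysed here. The labels' spelling C56BL/6J was read as C57BL/6J.

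Strain and day comparisons were fitted with limma 3.58.1 (R 4.3.3) on the HFD libraries, with a group per strain and day and a mean-variance trend, and diet comparisons on all 69 libraries. Two-sided p-values were adjusted by Benjamini-Hochberg over 14604 genes, at a threshold of 0.05. Positions and biotypes came from GENCODE M21, which held 14589 of the gene IDs. Transcripts were compared with blastn 2.17.0+.

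The members and lists were chosen with earlier results of these data known. Genes named with values are the 14 coding members with the widest RC margins in each direction, members in the lists or in groups of 3 or more neighbours, those nearest the threshold, and those called in a day or diet comparison. All others were chosen after their values were seen. Alternatives changed the normalization, filter, weights, covariates and libraries. 1 member and its group of neighbours are not reported here.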

Additional observations from a re-analysis of the deposited data

Results flagged for a closer look

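The fitted effect of diet differed between strains for 2 members. The RC libraries in these values also chose the members for their strain gap, which can bias the difference, so the p-values are no independent test. In C57BL/6J at day 5, diet and title number also go together. For Zfp982 HFD minus RC was 0.71 in DBA/2J and -0.32 in C57BL/6J, and the difference of 1.025 log2 units passed limma's test (adjusted p = 0.030). For Plekha4 HFD minus RC was -0.17 in DBA/2J and 0.52 in C57BL/6J, with a difference of -0.688 (adjusted p = 0.038).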

How the results depend on the processing

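All 119 members kept their calls against both strains on HFD in 1 fit of all libraries, with voom on recovered reads, array weights and quantile normalization, and without each library in turn (119). A filter at a mean of 1 log2 CPM left 55 members to test, and 55 were called in both comparisons. With cell-type scores as covariates 106 were called against C57BL/6J, and with title number 117 against BALB/cJ. Ppp1r17 then turned to 1.69 (adjusted p = 0.36), and with title number as covariate Shisa7 against BALB/cJ turned to -0.225 (adjusted p = 0.742). The cause was not tested. The rule gave 198 members at a margin of 1, 75 at 2, and 115 to 123 without single RC libraries.

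Calls for day 33 against day 5, 7 as reported, were 14 with all libraries, 16 with voom, 41 with array weights and 4 with cell scores, and 4 to 12 without single libraries. With title number they were again 7, of which Sfi1 alone was among the 7 reported. For day 13 against day 5, with alternatives chosen after seeing the data, the 2 calls became 3 with all libraries, 4 with voom, 27 with array weights, 11 with title number and 4 with cell scores, and 2 to 4 without single libraries, with 4 without DBA/2J HFD day 5 replicate 1. Zfp970 (4.14 to 6.51) and Gm14403 (5.59 to 7.77) were called in all. HFD minus RC in DBA/2J gave 7 calls with array weights and 1 with quantile normalization. The diet effect against C57BL/6J gave 1 with voom, with quantile normalization and with the filter, 10 with array weights, 0 with title number or cell scores, and 0 to 5 without single libraries.

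Some libraries of both diets share a title number within a strain and day, in 8 DBA/2J, 6 C57BL/6J and 7 BALB/cJ cases. Their deviations from the group means correlated at -0.29 to 0.17 in DBA/2J, over 0.1 in 2 of 8, at -0.05 to 0.22 in C57BL/6J, over 0.1 in 2 of 6, and at -0.13 to 0.35 in BALB/cJ, over 0.1 in 5 of 7. The medians were 0.008 in DBA/2J, 0.017 in C57BL/6J and 0.169 in BALB/cJ. Not every pair was over 0.1 in any strain, so the numbers were not taken as pairs. That cutoff cannot tell whether some pairs share a factor, which was not tested. With that number as a replicate block, tried after seeing the data on these libraries alone, 0 members were called in DBA/2J and 0 for the diet effect against C57BL/6J or BALB/cJ. No paired analysis was possible between strains because the labels tie no mice across them. Depth limits members near the floor, where 1 read decides a level.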
